A study of Drosophila melanogaster with 34 samples.

Results

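Simple repeats are short units of DNA copied head to tail, and in long arrays they are called satellite DNA. The small RNA count tables held 9683 rows of the class simple repeat, 4790 in the sense table and 4893 in the antisense table, under 6428 different names. The tables held 84383 rows in all. The rows were taken by class alone and grouped by the number of letters in the repeated unit, which was read from the name, so that (CTCTT)n has a unit of 5 letters. A further 11 rows of the class, such as A-rich, are named by base composition and have no unit.

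Satellite arrays fill much of the heterochromatin of Drosophila melanogaster, the densely packed DNA around the centromeres and on the Y chromosome. The AAGAG satellite lies in heterochromatin of several chromosomes and is transcribed in the male germline, AAGAC lies on the Y chromosome and on chromosome 2, and AATAC and AATAGAC are known from the Y chromosome. Aubergine (aub) and Piwi (piwi) are PIWI-clade Argonaute proteins, which bind piRNAs, the small RNAs that silence repeated sequence in the germline.

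Small RNA was measured in aub mutant sperm, piwi mutant sperm and wild type (WT) sperm with 3 libraries each, in WT testis, and in WT seminal vesicle, the organ that stores sperm. From seminal vesicle there were 4 PIWI immunoprecipitates (IP), taken after UV crosslinking, and 2 total RNA libraries. From WT testis 1 library was analysed for each of T1, T2 and T3, names the labels do not explain, though the labels list 2 samples of each. The labels give the mutations as aub, piwi and wt and name no allele, genetic background or age. They do not say whether libraries of a group came from separate animals or pools, so p-values measure the spread between these libraries, which may be technical.

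Total assigned counts were 7900729 to 10725869 in aub sperm, 4848752 to 8692950 in piwi sperm, 3303302 to 7294914 in WT sperm, 3650015 to 6202641 in testis, 2363275 to 18728872 in IP and 15084248 to 17489236 in total RNA. Ribosomal rows took 62.6% to 87.3% of them. A list of 14 testis miRNAs, fixed as markers of the tissue, summed to 51.3 to 122.9 CPM (counts scaled to the library's assigned total in both tables) in aub sperm, 15.4 to 85.0 in piwi sperm, 5.54 to 31.2 in WT sperm and 714 to 2144 in testis. All 14 were found, and 2 of them were at 0 in every WT sperm library. Accessory gland genes, sense rows, reached 111 to 216 CPM in aub sperm, 19.4 to 194 in piwi sperm and 43.7 to 161 in WT sperm, but at most 0.548 in testis. The aub and piwi rows held at most 2 sense counts in any sperm library, so the mutations could not be checked. Libraries of WT sperm stood apart from each other on the satellites described below, replicate 1 being low. Replicate 1 also stood apart over the fuller rows of all classes. There the mean chi-square per row, a measure of how far counts of 2 libraries differ beyond depth, was 27.0 and 27.1 against replicates 2 and 3. Between replicates 2 and 3 it was 5.65.

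A sense count was read as RNA with the letters of the row's name and an antisense count as RNA with the reverse complement. Rows whose RNA would carry the same unit in any reading frame were put together as 1 RNA unit. The units on which the results turn are shown here, 5′ to 3′. In pyrimidine-rich units a capital marks a purine, and in purine-rich units a capital marks a pyrimidine. AATAGAC is the unit of the row (ACAATAG)n read from another letter.
Satellite AAGAG as named, the purine strand: aagag
Strand CTCTT of that satellite, the pyrimidine strand: ctctt
Relative CTCTCTT of the pyrimidine strand: ctctctt
Relative ATCTT of the pyrimidine strand: Atctt
Satellite AAGAC as named, purine-rich: aagaC
Strand CTTGT of that satellite, pyrimidine-rich: cttGt
Satellite AATAC as named, purine-rich: aaTaC
Satellite AATAGAC as named, purine-rich: aaTagaC

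Most rows held little. The class held 477914 counts over the 18 libraries, the median row held 2 counts, 2957 rows held none, and 520 rows held 100 or more. The 10 fullest rows took 30.1% of all counts of the class. The first was (ACAATAG)n sense with 39427 counts, and the next was (TCTTC)n sense, which carries CTCTT, with 25570. A-rich sense followed with 18591 and GA-rich sense with 11518. Units of 5, 6 and 7 letters are the most numerous, with 626, 2009 and 1561 sense rows, and 3-letter units, which include (CAG)n and (CTG)n, gave 41926 sense and 50270 antisense counts from only 62 and 61 rows.

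Summed over all rows, the class stood at 767 ± 47.3 CPM in the sense table of aub sperm, 820 ± 273 in piwi sperm and 1151 ± 465 in WT sperm (SD, n = 3 each). The antisense sums were 867 ± 47.1 in aub sperm, 801 ± 199.5 in piwi sperm and 945 ± 312 in WT sperm (SD, n = 3 each). On both strands the libraries of each mutant overlapped those of WT sperm, whose replicate 1 was again low. The sense counts of T1, T2 and T3 were 1811, 1208 and 1111 CPM, and the antisense counts 1060, 792 and 799 CPM. The ratio of sense to antisense counts of the class was 0.878 to 0.891 in aub sperm, 0.937 to 1.11 in piwi sperm, 1.06 to 1.30 in WT sperm, and 1.39 to 1.71 in testis. Antisense counts outnumbered sense counts in all 3 aub libraries and in 2 of 3 piwi libraries, and in no WT sperm or testis library. Sense and antisense follow the row's name here, so the ratio does not measure a strand of transcripts. CTCTT held 426, 2185 and 3648 sense and 142, 759 and 1213 antisense counts in WT sperm. In aub sperm it held 57, 71 and 173 sense and 30, 13 and 63 antisense counts. Part of the difference in ratio is thus that of this 1 unit.

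The make-up by unit length differed more than the sum. Units of 5 letters took 8.98% to 10.8% of the sense counts of the class in aub sperm, 16.6% to 24.0% in piwi sperm and 20.1% to 51.0% in WT sperm. In T1, T2 and T3 the same units took 57.9%, 44.7% and 41.0%. No aub library reached the lowest piwi or WT library, and piwi and WT overlapped at WT replicate 1. The sense rows of CTCTT held 426, 2185 and 3648 of 4174, 4987 and 9612 sense counts of the class in WT sperm. In aub sperm they held 57, 71 and 173 of 6247, 7663 and 6375. The difference between aub and WT sperm in the 5-letter share was thus largely that of this 1 unit, described below. As shares sum to the whole, other lengths took more in aub sperm, such as 3-letter units with 22.9% to 24.5% in aub sperm and 10.7% to 22.4% in WT sperm, and 6-letter units with 27.3% to 29.7% in aub sperm and 13.9% to 23.3% in WT sperm. In seminal vesicle the 5-letter share was 11.5% to 26.8% in IP and 29.3% to 33.3% in total RNA, with no overlap.

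**Figure D1:**
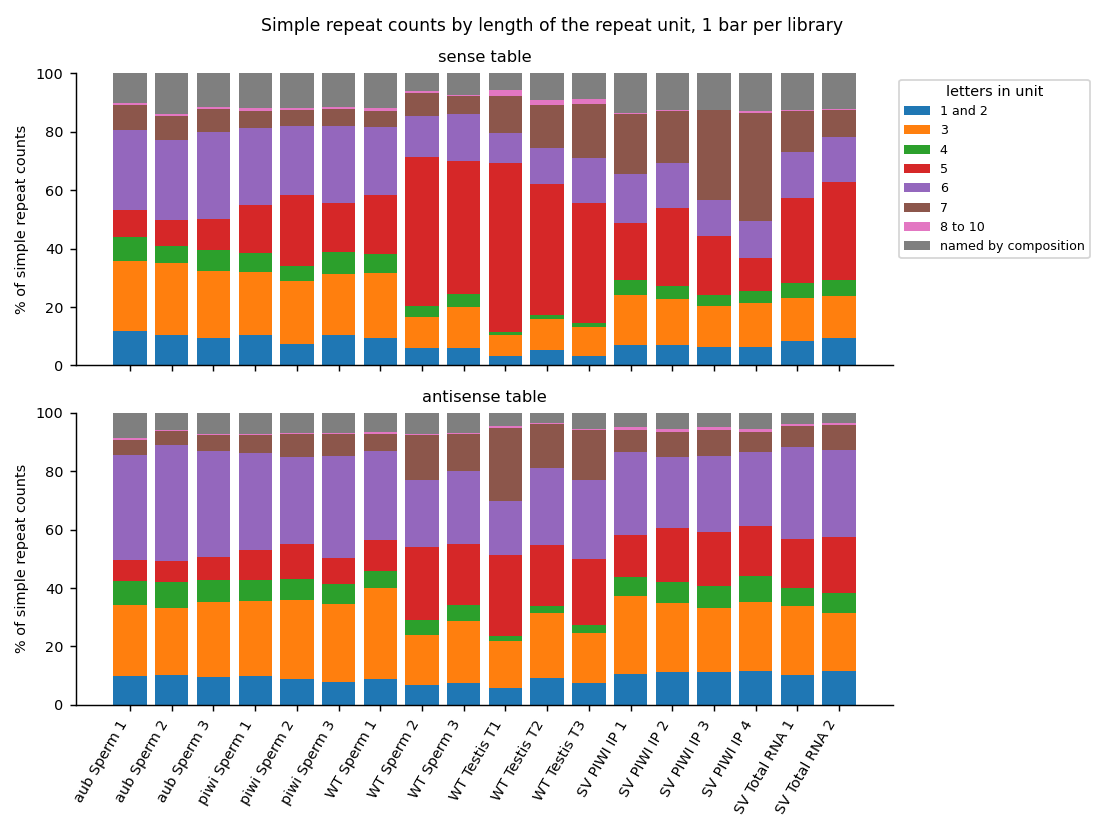
Share of the simple repeat counts (percent, vertical axis) taken by each unit length in every library, sense table above and antisense table below, with aub, piwi and WT sperm, testis T1 to T3, IP and total RNA along the horizontal axis and 1 stacked bar per library. Units of 5 letters take 8.98% to 10.8% of the sense counts in aub sperm and 41.0% to 57.9% in testis.

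The pyrimidine strand of the AAGAG satellite was abundant in testis and in part of the sperm libraries, and it was low in aub sperm. CTCTT had 10.8, 7.83 and 29.9 CPM in aub sperm, 78.7, 253 and 82.3 CPM in piwi sperm, and 85.1, 891 and 666 CPM in WT sperm. All 3 aub libraries lay below every piwi and WT library, while WT replicate 1 lay among the piwi libraries. T1, T2 and T3 had 924, 407 and 376 CPM (exact 95% intervals, counting error only, 894 to 955, 387 to 428 and 361 to 391). CTCTT took 0.512% to 1.74% of the simple repeat counts of aub sperm, 5.48% to 11.8% in piwi sperm, 7.02% to 33.3% in WT sperm and 19.7% to 32.2% in testis.

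Both tables gave the same picture. The CTCTT reads of sense rows averaged 11.9 ± 8.68 CPM in aub sperm, 104 ± 77.6 in piwi sperm and 408 ± 309 in WT sperm, and those of antisense rows 4.31 ± 3.42, 33.7 ± 22.1 and 139 ± 107 CPM in the same groups (SD, n = 3 each). The relative CTCTCTT had 3.24, 4.29 and 5.44 CPM in aub sperm, 8.89, 33.9 and 13.8 in piwi sperm, 16.0, 204 and 133 in WT sperm, and 298, 115 and 142 in T1, T2 and T3. Every aub library again lay below every other sperm library, and WT replicate 1 lay among the piwi libraries.

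The purine strand was scarce. AAGAG had 0.374, 0.280 and 1.01 CPM in aub sperm, 2.12, 3.22 and 1.44 in piwi sperm, and 1.8, 4.24 and 5.48 in WT sperm. In T1, T2 and T3 it had 8.68, 7.95 and 13.4 CPM. The pyrimidine strand exceeded it 28- to 29.5-fold in aub sperm, 37.1- to 78.4-fold in piwi sperm, 47.3- to 210-fold in WT sperm and 107-, 51.2- and 28.1-fold in T1, T2 and T3. Few purine strand counts stand behind these ratios in sperm, only 3, 3 and 8 in aub sperm. Every sperm, testis and seminal vesicle library held more of the pyrimidine strand than of the purine strand.

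**Figure D2:**
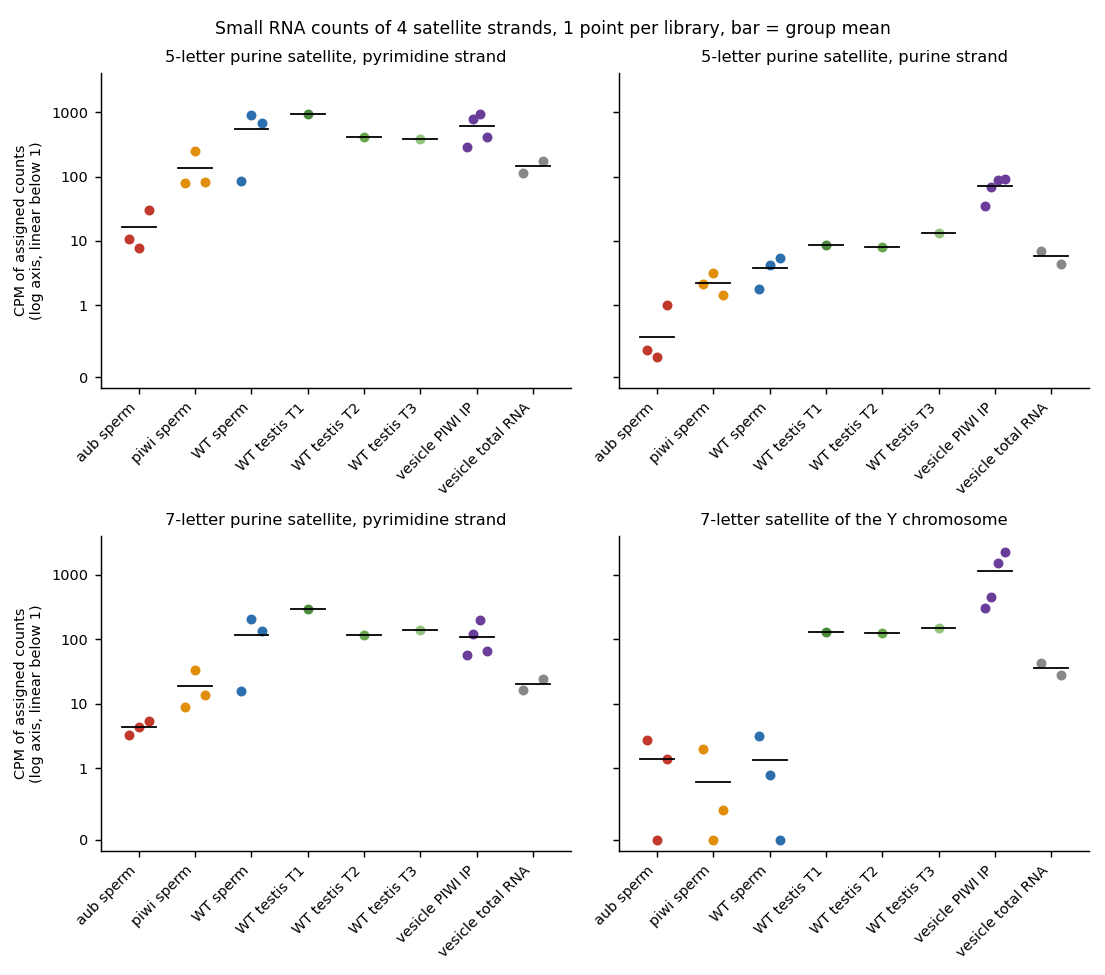
CPM (vertical axis, logarithmic above 1 and linear below) of CTCTT, the purine strand AAGAG, the relative CTCTCTT and the Y chromosome satellite AATAGAC, 1 panel each, with aub, piwi and WT sperm, testis T1 to T3, IP and total RNA along the horizontal axis, 1 point per library and a bar at the group mean. The CTCTT points of aub sperm lie between 7.83 and 29.9 CPM, below all points of WT sperm (85.1 to 891).

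In the test of aub sperm against WT sperm, edgeR's quasi-likelihood test over all 10804 rows that passed the filter on low counts called 15 of 227 tested simple repeat rows at a Benjamini-Hochberg adjusted p under 0.05, 2 higher and 13 lower. Over all rows 1.84% were called (0.907% higher and 0.935% lower). Rows of the class complex repeat were called at 6.75% (3.57% higher and 3.17% lower), beside 6.61% of simple repeat rows. The raised rate is thus not particular to simple repeats. Of piRNA rows 1.30% were called, and 27.3% had a positive change. At an unadjusted p under 0.05 there were 26 simple repeat rows. The median log2 fold change of the tested simple repeats was 0.01, beside 0.02 for all rows, so the medians lay together. The comparisons of the mutants share the WT libraries.

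The rows that fell in aub sperm were mostly of related units. Of the 13, 12 carry the pyrimidine-rich units shown above: all 8 tested CTCTT rows, all 3 tested CTCTCTT rows and the ATCTT row, with log2 fold changes of -5.68 to -4.61 and a median of -5.01. ATCTT was added to this set after the values were seen. The dinucleotide CT, also of pyrimidines only, had 6 tested rows and 0 called, with a median of -0.24 (-0.59 to 0.13). The fall is thus not one of pyrimidine repeats in general. The row (TCTTC)n sense had 33, 36 and 98 counts in aub sperm, against 248, 1243 and 2117 in WT sperm (log2 fold change -5.22, SE 0.79, adjusted p = 0.0162). Its antisense counterpart by RNA, (GAAGA)n antisense, had 9, 5 and 16 counts in aub sperm, against 58, 236 and 376 in WT sperm (-5.26, SE 0.72, adjusted p = 0.0115). The 7-letter row (GAGAAGA)n antisense had 2, 5 and 3 counts in aub sperm, against 10, 56 and 77 in WT sperm (-4.61, SE 0.67, adjusted p = 0.00606). No aub library overlapped a WT library in any of the 12 rows. Rows of 1 unit can share reads, so these are not 12 separate measurements.

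The other rows of these units had like values. (CTCTT)n sense changed by -5.03 (adjusted p = 0.0147), (TCTCT)n sense by -5.30 (0.0243) and (TTCTC)n sense by -4.84 (0.0327) on the log2 scale. Among antisense rows, (AGAGA)n changed by -4.98 (adjusted p = 0.0295), (GAGAA)n by -4.98 (0.0395) and (AAGAG)n by -5.09 (0.042). The ATCTT row, (TCTTA)n sense, had 4, 1 and 7 counts in aub sperm, against 21, 126 and 232 in WT sperm (-5.68, SE 0.88, adjusted p = 0.0215).

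These calls rested on few libraries. All 12 were also called by DESeq2 and with library sizes taken from miRNA rows, but with library sizes taken without ribosomal rows and no TMM factors 3 of the 12 were called, and with no filter on low counts 7 of 15 rows of these units. Without aub replicate 1, 2 or 3 the calls were 2, 1 and 3 of the 12 (5, 2 and 4 simple repeat rows in all), and without WT replicate 2 or 3 they were 3 and 3 (4 and 5 in all). When the rows of 1 RNA unit were summed before the fit, an alternative chosen after seeing the data in which 1.73% of all rows were called, CTCTT changed by -5.16 (adjusted p = 0.0147), CTCTCTT by -4.77 (0.0163), ATCTT by -5.57 (0.0247) and the scarce purine strand AAGAG by -2.93 (0.0131). The testis miRNAs given above summed to 51.3 to 122.9 CPM in aub sperm and 5.54 to 31.2 CPM in WT sperm. Their part in the satellite result was not tested.

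Outside these pyrimidine-rich units, 3 rows were called in aub sperm. (ATT)n antisense, whose RNA carries the AAT unit, had 10, 29 and 10 counts in aub sperm, against 139, 50 and 96 in WT sperm (log2 fold change -3.43, SE 0.43, adjusted p = 0.00309). (TAATCTA)n sense rose, with 41, 106 and 95 counts in aub sperm, against 0, 1 and 4 in WT sperm (4.72, SE 0.92, adjusted p = 0.0324). (TACA)n antisense rose by a smaller amount, with 127, 284 and 203 counts in aub sperm, against 25, 40 and 72 in WT sperm (1.33, SE 0.29, adjusted p = 0.0373). In each of these 3 rows the libraries of the groups did not overlap. (AGTTTT)n antisense, a fuller row, had 894, 1374 and 740 counts in aub sperm, against 95, 211 and 400 in WT sperm, and was not called (1.30, SE 0.37, adjusted p = 0.103).

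In piwi sperm against WT sperm, 3 of 227 tested rows were called, 1 higher and 2 lower, beside 0.898% of all rows (0.342% higher and 0.555% lower), with 31 at an unadjusted p under 0.05. (GGAGA)n sense had 0, 0 and 0 counts in piwi sperm, against 53, 21 and 29 in WT sperm, and was at least 41.9-fold lower by CPM with a floor of 3 counts over the group (adjusted p = 0.00188). (ATT)n antisense had 13, 25 and 16 counts in piwi sperm, against 139, 50 and 96 in WT sperm (-2.72, SE 0.43, adjusted p = 0.00959). (GATCCC)n antisense had 43, 62 and 52 counts in piwi sperm, against 14, 2 and 12 in WT sperm (2.30, SE 0.42, adjusted p = 0.0201). (ATT)n antisense was thus low in both mutants, at 1.74 ± 0.836 CPM in aub sperm, 2.63 ± 0.814 in piwi sperm and 16.4 ± 3.98 in WT sperm (SD, n = 3 each). Its whole AAT unit, picked after the values were seen, stood at 3.16 ± 0.930, 3.80 ± 1.23 and 18.3 ± 3.17 CPM in that order. Most of the unit in WT sperm was this row, so its fall says little of the other AAT rows.

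None of these pyrimidine-rich rows was called in piwi sperm. The 8 rows of CTCTT had a median log2 fold change of -1.84 and the 3 of CTCTCTT one of -2.51. All 12 rows, with that of ATCTT, had changes of -2.76 to -1.66 with a median of -1.91, and 0 of them passed, 4 by DESeq2 and 12 with library sizes from miRNA rows. Without WT replicate 1, the low library, 10 of the 12 were called lower and 14 simple repeat rows were called in all. Without piwi replicate 1 there was 1 call. With rows of 1 RNA unit summed, 2 were higher and 3 lower of 202 (0.928% of all rows called).

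**Figure D3:**
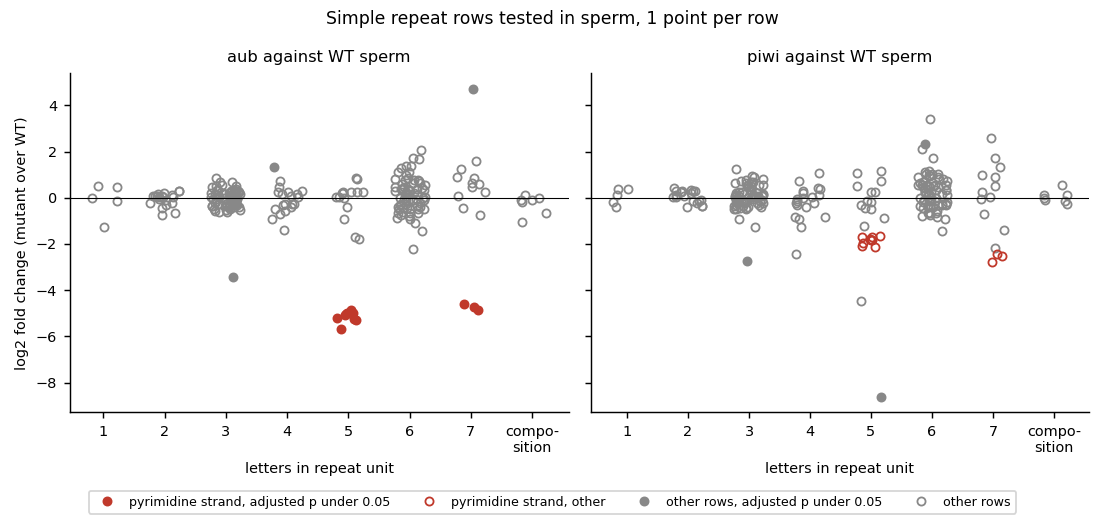
Log2 fold change (vertical axis) of each simple repeat row tested in sperm by letters in its unit (horizontal axis), aub against WT on the left and piwi against WT on the right, with the rows of CTCTT, of its 7-letter relative and of ATCTT in red and rows past an adjusted p of 0.05 filled. The 12 red points lie between -5.68 and -4.61 on the left and between -2.76 and -1.66 on the right.

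The mutants set against each other differed in 1 of 227 rows, beside 0.518% of all rows (0.278% higher and 0.241% lower), with 31 at an unadjusted p under 0.05. (GGAGA)n sense had 28, 45 and 30 counts in aub sperm, against 0, 0 and 0 in piwi sperm, at least 27.1-fold higher by CPM (adjusted p = 0.00671). The 12 pyrimidine-rich rows had a median log2 fold change of -3.16 in aub over piwi sperm, and 0 of the 12 were called. WT libraries are in neither group here but enter the fit through the filter on low counts, the scaling and the spread. Without WT replicate 1, with 265 simple repeat rows tested, all 12 were called and 15 in all. With only the 2 mutant groups fitted, 10 of 11 tested pyrimidine-rich rows were called and 13 simple repeat rows in all, and without piwi replicate 3 the calls were 2. DESeq2 called 10 of the 12, and library sizes from miRNA rows gave 9. With rows of 1 RNA unit summed, 1 of 202 was called (0.52% of all rows).

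Simple dinucleotide repeats, the common microsatellites, gave no call between sperm groups. AC stood at 29.1 ± 4.76 CPM in aub sperm, 28.6 ± 7.0 in piwi sperm and 25.2 ± 9.93 in WT sperm, and GT at 41.4 ± 0.860, 43.3 ± 7.67 and 38.3 ± 0.723 CPM in the same groups (SD, n = 3 each). AT stood at 48.1 ± 3.24, 34.6 ± 13.1 and 42.5 ± 16.8 CPM in that order. By CPM the aub libraries of GT lay above those of WT sperm on average by more than the SD, but its rows did not pass: (CA)n antisense, whose aub and WT libraries did not overlap by CPM, had a fitted log2 fold change of 0.07 (SE 0.28, adjusted p = 0.954). Among 3-letter units, AAC stood at 76.9 ± 9.52 CPM in aub sperm, 75.6 ± 29.1 in piwi sperm and 68.5 ± 15.9 in WT sperm, and AGC at 116 ± 13.6, 123 ± 41.3 and 96.7 ± 16.8 CPM in that order.

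Several satellites were scarcer in WT sperm than in testis. The shares of CTCTT overlapped, at 7.02% to 33.3% of the simple repeat counts in WT sperm and 19.7% to 32.2% in testis. WT sperm was set against the average of the testis libraries, with spread estimated from sperm only. In that test 121 of 235 tested rows were called, 63 higher and 58 lower, beside 57.2% of all rows (26.5% higher and 30.7% lower). With so large a background the share of simple repeats called, 51.5%, is no result about the class. At an unadjusted p under 0.05 there were 138, and the median log2 fold change was 0.43 beside 0.21 for all rows. The direction depended on the scaling: library sizes without ribosomal rows gave 106 higher and 45 lower, sizes from miRNA rows 132 higher and 22 lower, strands fitted apart 134 higher and 38 lower, and DESeq2 11 higher and 36 lower. With T1, T2 and T3 taken as 1 group there were 29 higher and 30 lower of 124 tested. Fewer cells of a type and less RNA per cell cannot be told apart in these bulk libraries.

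By length of unit the calls divided for some lengths and not for others. Of 20 tested dinucleotide rows 17 were higher in sperm and 0 lower, of 15 tested 4-letter rows 10 were higher and 0 lower, and of 6 tested 1-letter rows 4 were lower. Of 35 tested 5-letter rows 5 were higher and 13 lower, and of 17 tested 7-letter rows 2 were higher and 6 lower. The lengths with the most tested rows went both ways, with 10 higher and 8 lower of 59 3-letter rows and 18 higher and 25 lower of 74 6-letter rows. DESeq2 called only 11 rows of the whole class higher, so the counts of higher rows by length do not hold there. (CT)n sense had 46, 40 and 62 counts in WT sperm, against 3, 3 and 12 in T1, T2 and T3 (log2 fold change 2.74, SE 0.46, adjusted p = 4.63e-04). (ATT)n antisense had 139, 50 and 96 counts in WT sperm, against 6, 6 and 13 in testis (3.02, SE 0.50), and (TTTG)n sense 29, 30 and 60 counts against 2, 0 and 0 (6.5, SE 0.79). In each of these rows every sperm library lay above every testis library. (TTTG)n sense passed the filter on low counts only through sperm, so it could only be higher and is no separate support for a rise. (A)n sense went the other way, with 22, 18 and 28 counts in WT sperm, against 136, 163 and 91 in testis (-3.08, SE 0.39).

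Several satellites fell in sperm, while the pyrimidine strand of AAGAG did not pass the test. Other repeat classes fell more widely: 86.7% of complex repeat rows were lower, with a median log2 fold change of -4.23. Of piRNA rows 88.7% were lower, with a median of -4.65. A fall in sperm is thus not particular to these satellites. The unit AATAGAC, the Y chromosome satellite of the fullest row, had 21, 3 and 0 counts in WT sperm, against 491, 450 and 928 in T1, T2 and T3 (log2 fold change -6.64, SE 1.40, adjusted p = 0.0118). The CTTGT row of that name, sense, had 33, 18 and 6 counts in WT sperm, against 481, 332 and 313 in testis (-4.71, SE 0.73, adjusted p = 4.95e-04). (AATAC)n sense, of the other Y chromosome satellite, had 0, 0 and 0 counts in WT sperm, against 108, 52 and 54 in testis, at least 90.2-fold lower by CPM (adjusted p = 2.13e-05). Both tested rows of AAGAC were lower in sperm, as were both of its complement CTTGT, both of AATAC and both of a further satellite, AATAG, and the ranges of sperm and testis libraries did not overlap in the 3 rows given. Both AATAC rows and (AGAAT)n sense of AATAG were at 0 in every WT sperm library. They passed the filter on low counts only through testis and could only be lower, so they are no separate support for a fall. These named rows kept their sign under each of the scalings above. With rows of 1 RNA unit summed, 49 were higher and 41 lower of 202 (57.1% of all rows called). Of the scarce purine strand of AAGAG, 1 of 3 tested rows was lower. It was (GAGAA)n sense, with 2, 1 and 9 counts in WT sperm, against 14, 8 and 27 in T1, T2 and T3 (-2.54, SE 0.62, adjusted p = 0.00509). The 1 tested purine row of the 7-letter relative was lower too. Of CTCTT, 0 of its 8 tested rows and 0 of the 3 CTCTCTT rows were called, with CTCTT log2 fold changes of -0.61 to 0.24 and CTCTCTT ones of -1.19 to -0.58. CTCTT exceeded AAGAG 47.3- to 210-fold in WT sperm and 28.1- to 107-fold in testis. These ranges overlap, so a difference between the strands is not shown.

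Among the testis libraries, each with counting intervals only, T1 was highest in several satellites. CTTGT had 200, 145 and 77.1 CPM in T1, T2 and T3 (exact 95% intervals 186 to 215, 133 to 158 and 70.3 to 84.3), and AATAC had 37.1, 18.6 and 9.51 CPM (31.2 to 43.7, 14.5 to 23.6 and 7.24 to 12.3). AAGAC, the other strand of CTTGT, ran in the opposite order, with 6.57, 11.8 and 21.1 CPM (4.25 to 9.70, 8.53 to 15.9 and 17.7 to 25.1). AATAGAC had 129, 123 and 150 CPM (118 to 141, 112 to 135 and 140 to 160). The ratio of CTTGT to AAGAC was 30.4, 12.3 and 3.65 in T1, T2 and T3, and that of AATAC to its complement was 35.3, 17 and 4.92. The complement of AATAC held only 4, 4 and 12 counts, so its ratios are imprecise. Each group was 1 library, so these orders have no replicate check.

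The strands of AAGAC changed places between organs. In IP of seminal vesicle AAGAC had 46.5, 79.0, 178 and 268 CPM and CTTGT 18, 36.0, 26.2 and 41.0 CPM, so the ratio of CTTGT to AAGAC was 0.147 to 0.456. In total RNA of seminal vesicle AAGAC had 13.5 and 10.8 CPM and CTTGT 8.15 and 4.97 CPM, a ratio of 0.460 to 0.603. The strand as named was the fuller one in all 6 seminal vesicle libraries and the complementary strand in all 3 testis libraries. In sperm both strands were scarce, CTTGT at 2.39 ± 2.02 CPM in aub, 3.06 ± 2.93 in piwi and 6.19 ± 4.31 in WT, and AAGAC at 0.791 ± 0.310, 1.51 ± 0.428 and 0.974 ± 0.759 CPM (SD, n = 3 each). Seminal vesicle and testis were counted on different feature lists, and the strand difference between them was given no test.

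**Figure D4:**
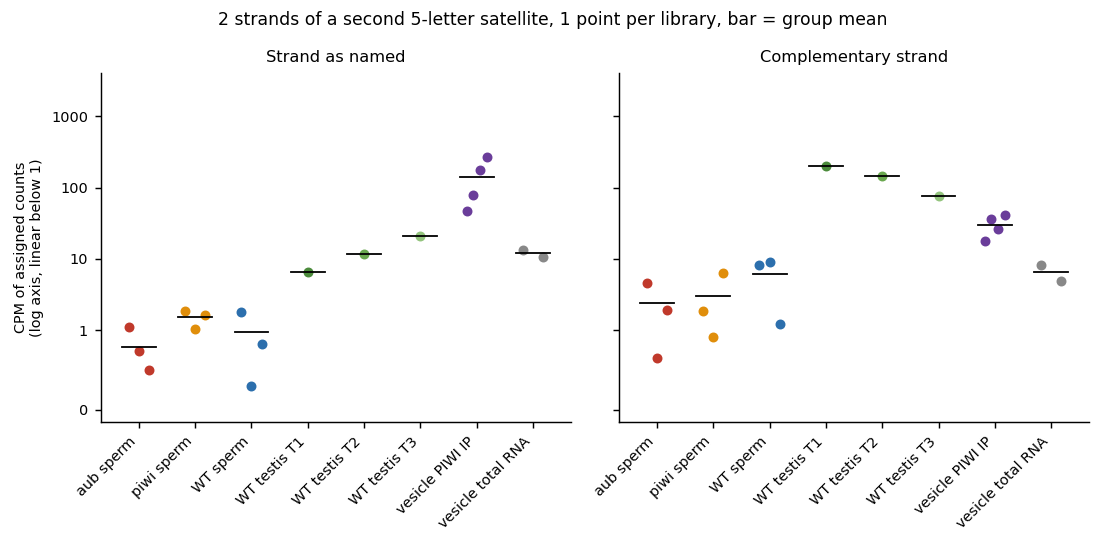
CPM (vertical axis, logarithmic above 1 and linear below) of AAGAC, left, and its complementary strand CTTGT, right, with aub, piwi and WT sperm, testis T1 to T3, IP and total RNA along the horizontal axis, 1 point per library and a bar at the group mean. AAGAC is highest in IP (46.5 to 268 CPM) and CTTGT in testis (77.1 to 200 CPM).

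In PIWI IP against total RNA of seminal vesicle, the class as a whole stood higher. The sense rows summed to 4309 ± 2107 CPM in IP (SD, n = 4) and 486 ± 72.0 in total RNA (SD, n = 2), and the antisense rows to 3084 ± 1124 and 418 ± 28.9 CPM. CPM here is relative to all assigned counts, of which ribosomal rows took 62.6% to 79.0% in IP and 85.6% to 87.3% in total RNA. The tests used TMM factors, 1.02 to 2.10 for IP and 0.357 to 0.428 for total RNA, so a fitted fold change is smaller than the ratio of CPM. On the fitted scale 918 of 1079 tested simple repeat rows had a positive change, with a median of 1.35 beside 0.08 for all rows. The 918 include rows at 0 in both total RNA libraries. Such rows passed the filter on low counts only through IP and could only be positive.

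At an adjusted p under 0.05, 189 of these 1079 rows were called, 178 higher and 11 lower, beside 18.4% of all rows (8.41% higher and 9.99% lower), with 385 at an unadjusted p under 0.05. The number called was near the background, and its direction was not: 16.5% of simple repeat rows were higher and 1.02% lower. Among the 178 are the called rows at 0 in total RNA given below. They passed the filter on low counts only through IP and could only be called higher, so they do not bear on the direction. Other repeat classes moved the same way, complex repeats with a median of 1.39 and 48.1% of rows higher and piRNA rows with a median of 1.16 and 25.9% higher, so the direction is not particular to simple repeats. Marker levels differed too: accessory gland genes stood at 113 to 215 CPM in IP and 17.9 to 21.7 in total RNA, mir-1 of muscle at 21673 to 50395 in IP and 12441 to 21262 in total RNA, and the testis miRNAs at 182 to 440 in IP and 64.0 to 72.9 in total RNA. Their part in the result was not tested. Library sizes without ribosomal rows gave 435 higher and 2 lower and sizes from miRNA rows 425 higher and 2 lower. These scalings moved the median of all rows by 0.80 and 0.75, and the simple repeat median stood above that of all rows by 1.27 under TMM, 1.28 without ribosomal rows and 1.27 with miRNA rows. Without IP replicate 3 there were 108 calls, without total RNA replicate 1 or 2 there were 74 and 55, and without IP replicate 4 there were 264. With rows of 1 RNA unit summed, 109 were higher and 7 lower of 583 (18.5% of all rows called). With only 2 libraries of total RNA, each decided many calls.

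The share of rows called differed by length of unit. Of 21 tested dinucleotide rows 13 were higher and 0 lower, of 106 tested 3-letter rows 35 and 0, of 159 4-letter rows 31 and 2, of 177 5-letter rows 28 and 1, of 509 6-letter rows 51 and 4, and of 82 7-letter rows 8 and 1. Few rows of other lengths were tested: of 6 1-letter rows 2 were higher and 1 lower, of 3 8-letter rows 1 and 0, of 6 9-letter rows 3 and 1, and of 2 10-letter rows 0 and 0. By RNA unit, 6 of 12 rows of AC, 5 of 8 of CT, 5 of 10 of GT and 2 of 7 of AG were higher, and 0 of 9 of AT. AC stood at 147 ± 59.1 CPM in IP (SD, n = 4) and 9.98 ± 2.87 in total RNA (SD, n = 2). (TC)n antisense had 14.5, 20.8, 34.2 and 51.6 CPM in IP, against 1.13 and 1.26 in total RNA (log2 fold change 2.50, SE 0.33), and (TG)n antisense 22.4, 37.5, 64.0 and 51.6 CPM in IP, against 1.86 and 2.80 (2.13, SE 0.28). No IP library came near a total RNA library in either row.

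Among longer units, (ACAGAT)n sense had 152, 212, 213 and 80 counts in IP, against 5 and 7 in total RNA (log2 fold change 3.43, SE 0.44, adjusted p = 9.9e-05), and (TGCTTC)n antisense 89, 112, 128 and 25, against 2 and 2 (3.93, SE 0.51, adjusted p = 1.09e-04). (TCTATA)n antisense had 66, 79, 92 and 22 counts in IP, against 0 and 0 in total RNA, at least 56.0-fold higher by CPM. The same held in kind for 38 called rows at 0 in total RNA, whose bounds ran from 8.86- to 56.0-fold. Rows at 0 in total RNA could pass the filter on low counts only through IP, so they are no separate support for a rise. Their bounds are by CPM without the TMM factors given above, which make fold changes smaller here. (ACA)n sense, a 3-letter row, had 904, 1445, 1512 and 299 counts in IP, against 89 and 104 (1.91, SE 0.27). Composition rows followed, with A-rich sense at 145, 233, 443 and 560 CPM in IP, against 30.6 and 40.5 CPM in total RNA. In all of these rows every IP library was above every total RNA library by CPM.

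The 11 lower rows included both called rows of the ATTG unit, and some of the others share a unit with rows that were higher. Of the AAAAC unit 1 row was lower and 3 were higher, and of the 1-letter A unit 1 was lower and 3 higher. (ATTG)n sense had 38, 99, 72 and 14 counts in IP, against 92 and 161 in total RNA (log2 fold change -2.73, SE 0.27, adjusted p = 1.04e-05), and (ATCA)n antisense 32, 47, 17 and 5, against 85 and 82 (-3.33, SE 0.34, adjusted p = 1.46e-05). By CPM (ATCA)n antisense had 1.78, 2.51, 1.52 and 2.12 in IP, against 5.64 and 4.69 in total RNA, so its groups did not overlap on either scale. (ATTG)n sense had 2.11, 5.29, 6.46 and 5.92 CPM in IP, against 6.10 and 9.21, where IP replicate 3 lay above the lower total RNA library. (AGTTTT)n antisense, at 30.1, 43.6, 123 and 98.2 CPM in IP and 31.8 and 38.9 CPM in total RNA, was called lower on the fitted scale (-1.10, adjusted p = 0.0217), though its CPM were not lower. Without ribosomal rows in the library size its change was -0.24 and was not called.

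The satellites behaved unlike each other in IP. CTCTT had 289, 773, 945 and 407 CPM in IP and 115 and 177 CPM in total RNA, yet 0 of its 8 tested rows were called, with a median log2 fold change of 0.01 (-0.66 to 0.14). Without ribosomal rows in the library size its median was 0.82 with 1 row called higher. The purine strand AAGAG had 34.6, 69.7, 87.2 and 93.1 CPM in IP and 7.09 and 4.40 CPM in total RNA, and 5 of its 8 tested rows were higher with a median of 1.60 (0 of 8 without total RNA replicate 2). The pyrimidine strand exceeded the purine strand 4.37- to 11.1-fold in IP and 16.3- to 40.2-fold in total RNA, with no overlap.

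The Y chromosome satellite AATAGAC had the highest CPM of any simple repeat row in an IP library. It had 311, 449, 1527 and 2241 CPM in IP and 42.8 and 28.0 CPM in total RNA, and its log2 fold change of 2.72 missed the threshold (adjusted p = 0.0648), though it passed with DESeq2 and when IP replicate 1 or 2 was left out. Its complement was all but absent, with 10 counts in IP and 1 in total RNA. AAGAC was called in 1 of 2 tested rows, (GTCTT)n antisense, with 325, 532, 773 and 238 counts in IP, against 69 and 75 in total RNA (1.38, adjusted p = 0.046), and CTTGT in 0 of 2. AATAC had 39, 67, 181 and 54 counts in IP, against 18 and 33 in total RNA. In sperm AATAGAC reached at most 22 counts in aub, 15 in piwi and 21 in WT libraries.

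The rows whose log2(CPM + 1) moved most like (AAGAG)n antisense over the 12 sperm and testis libraries were (CTCTT)n sense (Pearson r 0.991), (TTCTC)n sense (0.990), (AGAGA)n antisense (0.990), (GAGAA)n antisense (0.990) and (TCTCT)n sense (0.986). All carry the same RNA unit and can share reads, so this describes the counting as well as the satellite. Over the 6 seminal vesicle libraries the list began with (CGAGGA)n sense (0.994), of another unit.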

How the data were processed

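The authors deposited whole-number counts per feature, 1 sense and 1 antisense table. Bowtie 1.2.3, SAMtools 1.8, Subread 2.0.0 with featureCounts, Trim Galore 0.5.0 and the builds dm6 and BDGP6 appear, with no roles, in the submitters' processing notes. The handling of reads with several positions is not given in the sources used here, so counts of rows with the same repeat unit are uncertain as single rows. Per the labels' protocols, a NEBNext kit for small RNA was used with 2S rRNA blocked, testis libraries at a reduced volume, at different sites not given per sample. Of the columns per table, 18 matched a sample by name, and 3 did not and were not used. The third total RNA sample is not analysed here, so the seminal vesicle comparison planned with 7 libraries used 6, and testis groups planned with 2 libraries have 1 and no test among them. Seminal vesicle columns and the others were counted on different feature lists. No library was a copy of another of its group.

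The tests used edgeR 4.0.16 and limma 3.58.1 under R 4.3.3, with filterByExpr, TMM factors and a robust quasi-likelihood fit. P-values were adjusted over all rows by the method of Benjamini and Hochberg, with a threshold of 0.05. Both strands entered 1 fit. The sperm fit held 3 groups. The sperm and testis fit took its spread from sperm alone. Of 9683 members, 227 passed the filter in sperm, 1079 in seminal vesicle and 235 in sperm and testis. SE is the absolute log2 fold change over the square root of F. CPM is relative to the assigned counts of both tables, without TMM. Bounds use a floor of 3 counts over the group, and likeness a pseudocount of 1 CPM. A row at 0 in all libraries of a group passed the filter on low counts only through other groups. Intervals (95%, Clopper-Pearson or exact Poisson) and floors cover counting error only. DESeq2 1.42.0, other library sizes, filters, strands fitted apart, left-out libraries and a replicate block were alternatives. The scripts were tested on simulated data.

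Named rows were all called rows where 15 or fewer, else from the 10 with the smallest adjusted p in each direction, plus the fullest rows per strand, satellite rows, dinucleotides and units of 10 to 12 letters. Members and lists were chosen with earlier results of these data known.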

Additional observations from a re-analysis of the deposited data

Results flagged for a closer look

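Of 153 values checked within the 4 IP libraries, 7 had 1 library far from the others. Chance gives about 1 in 20, so the number flagged is no more than chance gives. The values are listed and not read as a result. In 5 of the 7 the library was IP replicate 4, the shallowest with 2363275 assigned counts. (GTGT)n sense stood at 11.4 CPM there and at 1.39 to 2.78 in the other IP libraries. (TATTC)n antisense stood at 7.19 CPM there and at 1.28 to 2.24 in the others. An antisense row with a 9-letter unit stood at 2.96 CPM there and at 0.641 to 0.897 in the others, and a sense row with a 10-letter unit at 11 CPM and at 1.33 to 2.51. The summed 10-letter sense rows, which hold that row, stood at 14.4 CPM there and at 1.94 to 3.14 in the others.

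In the remaining pair IP replicate 1 stood low. (CTCTT)n antisense, a row of the purine strand, had 0.61 CPM there and 1.52 to 1.69 in the other IP libraries. (TCTGCT)n antisense had 1.61 CPM there and 2.54 to 2.72 in the others. Over the fuller rows of all classes, IP replicate 1 was the library furthest from the rest. Its mean chi-square per row was 59.9 to 83.9 against the other IP libraries, beside 10.2 to 15.7 among those.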

How the results depend on the processing

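Counts of simple repeat rows called moved as follows. For piwi against WT sperm, 3 became 18 with miRNA library sizes, 12 with no filter, 5 with strands fitted apart, 10 with DESeq2, 6 with a replicate block, 5 with rows of 1 RNA unit summed, and 1 to 14 with a library left out. For aub against WT sperm, 15 became 5 with library sizes without ribosomal rows, 7 with summed units (fewer rows) and 2 to 15 with a library left out. For aub against piwi sperm, 1 became 2, 19, 11, 3, 13, 3 and 13 with sizes without ribosomal rows, miRNA sizes, no filter, strands apart, DESeq2, replicate block and 2 groups only, and 1 to 15 with a library left out. For IP against total RNA, 189 became 437 without ribosomal rows, 427 with miRNA sizes, 116 with summed units and 55 to 264 with a library left out. For WT sperm against testis, 121 became 47 with DESeq2 and 59 with T1 to T3 as 1 group, and 91 to 118 with a library left out. The summed units were chosen after seeing the data. The causes were not tested.

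The log2 ratio of the summed class moved with miRNA counts as the denominator for aub over piwi sperm (sense -0.10 became 0.63, antisense 0.11 became 0.83) and for WT sperm over testis (sense -0.26 became 1.05, antisense 0.10 became 1.36). For IP over total RNA, sense 3.15 became 1.85 without ribosomal rows and 1.77 with miRNA counts, and antisense 2.88 became 1.62 and 1.54. Of the single rows named, 1 changed sign: (TC)n antisense in WT sperm against testis, 2.31, was -0.016 without T1 and 3.55 without T3. Replicate numbers were not taken to pair samples, as the labels tie them to nothing shared and not every same-numbered pair correlated above 0.1, though the medians were higher for same numbers (0.118 in sperm, 0.112 in seminal vesicle) than for different numbers (-0.036 and -0.028): deviations of same-numbered libraries correlated at -0.069 to 0.161 in sperm (9 pairs) and 0.048 to 0.176 in seminal vesicle (2 pairs). Not every library correlated best with its own number. The block left 6, 13, 3 and 266 calls in the comparisons that share numbers. In seminal vesicle the main fit without a block called 189. Replicate 1 of both seminal vesicle groups also shared the pair of high antisense rows described below, so whether numbers pair samples there was not settled. Depth limits rows at few counts, such as AATAC in sperm.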

Other observations

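A pair of antisense rows stood high in 1 library of each seminal vesicle group. (CATCGT)n antisense had 1426, 44, 20 and 9 counts in IP replicates 1 to 4, and 264 and 10 counts in total RNA replicates 1 and 2. (ATC)n antisense had 1270, 140, 100 and 34 counts in IP, and 162 and 16 counts in total RNA. In both rows replicate 1 of each group held most of the counts, and neither row enters a result above by name.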
